A study of Homo sapiens with 6 samples.

Results

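The 189 microRNA genes described here were measured by 189 of the 33297 probe-set rows of 6 Affymetrix Human Gene ST arrays. They were chosen by name alone: a row counted when its single gene symbol began with MIR and a digit or with MIRLET7, and a gene with several rows would have been read from the brightest. They are 189 of the 18417 genes that the single-symbol rows cover. Of these, 16 are host transcripts, with symbols ending in HG, and 173 are not. A further 34 rows carried a microRNA symbol among several symbols and were not named.

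The RNA came from RD18, an established cell line of an embryonal rhabdomyosarcoma, which is a sarcoma of immature muscle character. In its derivative NpBI-22, doxycycline induces miR-22. The groups were induced NpBI-22 cells, given doxycycline at 1 µg/ml for 6 days (2 arrays), non-induced NpBI-22 cells, left untreated (2 arrays), induced NpBI-206AS cells, given the same doxycycline (1 array), and non-induced NpBI-206AS cells, left untreated (1 array). All groups thus carry an NpBI construct in the RD18 background, and the labels do not say what the NpBI-206AS construct makes or whether each derivative is a single clone. The series calls the NpBI-22 arrays biological replicates. In tests that give each group its own mean, the p-values thus measure the spread between these cultures of 1 line. Where the control groups are pooled, the p-values also rest on the spread between those groups.

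MicroRNAs are cut from hairpins within longer primary transcripts, which may be noncoding host genes, introns of protein-coding genes or clusters of several hairpins. The mature strand, loaded into an Argonaute protein, pairs through its seed with messenger RNAs and lowers their translation or stability. In skeletal muscle, miR-1, miR-206 and the miR-133 family accompany differentiation, and rhabdomyosarcoma cells are known for low levels of several of them. The arrays read total RNA with probes for transcripts, so a row here reports primary or precursor RNA and not the mature microRNA.

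The mature sequences on which the results turn are shown first, because several genes that moved differently carry the same seed. They are RefSeq sequences of assembly GRCh38.p14, written 5′ to 3′, with the seed (bases 2 to 8) in capitals. The microRNA made on induction, miR-22, lies within MIR22HG, and its strands map to chr17:1713914-1713935 (3p) and chr17:1713952-1713973 (5p), on the minus strand.
miR-22-3p: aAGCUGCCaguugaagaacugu
miR-22-5p: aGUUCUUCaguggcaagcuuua
The muscle microRNA miR-206 (chr6:52144401-52144422, plus strand) has the seed of miR-1-3p, while its neighbour miR-133b (chr6:52148988-52149009, plus strand) has another.
miR-206: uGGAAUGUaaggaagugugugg
miR-1-3p: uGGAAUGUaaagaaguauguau
miR-133b: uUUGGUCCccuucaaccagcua
The neighbours miR-221 (chrX:45746180-45746202) and miR-222 (chrX:45747036-45747056), both on the minus strand, share a seed.
miR-221-3p: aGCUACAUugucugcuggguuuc
miR-222-3p: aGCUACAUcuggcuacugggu
The seed of miR-148b (chr12:54337278-54337299, plus strand) is also that of miR-148a and miR-152, which lie elsewhere in the genome.
miR-148b-3p: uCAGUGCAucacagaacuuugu
miR-148a-3p: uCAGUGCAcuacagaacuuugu
miR-152-3p: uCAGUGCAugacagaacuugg
In the RefSeq table used here, 0 other mature microRNAs had the seed of miR-22-3p.

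On the log2 scale, the lower quartiles of the arrays were 3.92 to 4.01 and their medians 5.66 to 5.75. Of 7 muscle-lineage markers, 5 were above the median on all arrays and MYF5 and MYF6 were under it, while all 9 measured markers of blood, endothelium and epithelium (3 each) were under it, between 2.66 and 4.84. The array codes in the labels share a prefix on both induced NpBI-22 arrays that no other array has. What the prefix stands for is not stated, so it and the induction of miR-22 cannot be told apart.

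Most microRNA genes gave dim rows. A value under its array's lower quartile is called near background here, since the table holds no detection calls. On all 6 arrays, 77 of the 189 microRNA genes were near background, which is 40.7% against 20.5% of all rows. On some arrays 27 were, and on none 85. At the other end, 23 microRNA genes, or 12.2%, were at or above the median on all 6 arrays, against 44.9% of all rows. Among the 16 host transcripts, 5 were at or above the median on all arrays and 2 were near background on all. The mean level over the 6 arrays ran from 1.74 to 8.07, with a median of 4.13 against 5.72 for all rows.

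The highest means over the 6 arrays belonged to MIR339 (8.07), MIR326 (7.77), MIR22HG (7.62), MIRLET7I (7.16), MIR210 (7.07), the hypoxia-responsive microRNA gene, and MIRLET7F1 (7.06). MIR339, the highest, was at 7.96 and 7.76 in induced and 8.33 and 8.25 in non-induced NpBI-22 cells, and MIR326 at 7.81 and 7.62 in induced and 7.95 and 7.74 in non-induced NpBI-22 cells. Over all microRNA genes, the range across the 6 arrays had a median of 0.52, close to the 0.57 of all rows. A range of 1 or more was seen in 19 microRNA genes, 10.1%, against 18.4% of all rows. Because each row has its own probes, an order of levels between rows is not an order of RNA amounts.

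Row level moved with base composition. For 155 microRNA genes a RefSeq hairpin was matched, and its share of G and C bases correlated with the row's mean level at Pearson 0.65 and Spearman 0.63 (n = 155 genes measured on the same 6 arrays, a description across genes). A line through the points rose by 1.02 on the log2 scale for each 10% of G and C. Ordered by G and C and cut into 3 sets, the set with the least (52 hairpins, 28.8% to 44.8%) had a median level of 3.15 and 33 genes, 63.5%, near background on all arrays. The middle set (51 hairpins, 44.9% to 53.6%) had a median of 3.62 and 26 such genes, 51.0%, and the richest set (52 hairpins, 54.0% to 73.6%) a median of 5.28 and 6 such genes, 11.5%. The part of probe affinity in these levels was not tested. The same composition did not track the induced minus non-induced difference, with a Pearson correlation of -0.02.

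Some rows stood well above that line, and these were picked after their values were seen. MIRLET7F1, whose hairpin holds 40.2% G and C, lay 3.92 above it, MIR181B1 2.72, MIRLET7I 2.66 and MIR21 2.53. The let-7 family restrains growth genes such as RAS and LIN28, and miR-21 is a microRNA often raised in tumours.

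**Figure D1:**
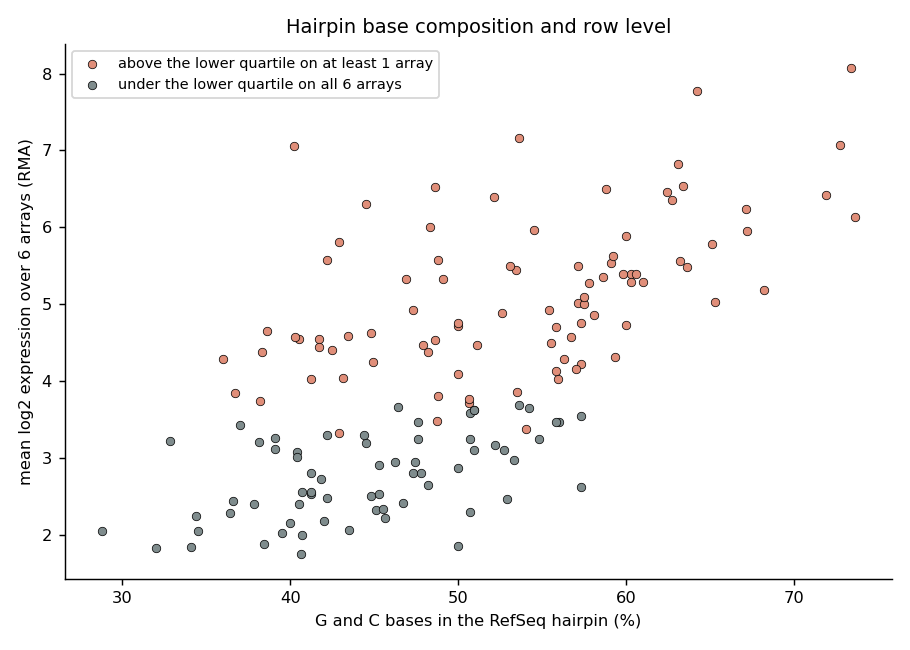
Share of G and C bases in the RefSeq hairpin (percent, horizontal axis) against the mean log2 expression of the row over 6 arrays (vertical axis) for 155 microRNA genes, 1 point each, with genes near background on all arrays in grey. Median levels were 3.15, 3.62 and 5.28 in the 3 sets of genes with low, middle and high G and C.

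The main question of the design was what induction changed in NpBI-22 cells. Of the 189 microRNA genes, 4 passed limma's test at an adjusted p under 0.05, which is 2.12% against 3.6% of all rows. MIR22HG rose, 1 of 189 against 1.59% of all rows, and MIR206, MIR148B and MIR221 fell, 3 of 189 against 2.01% of all rows. The median difference over the microRNA genes was -0.03, and that over all rows was -0.01. Within 0.5 of no difference lay 172 genes, 91.0% against 78.7% of all rows, while 6 differed by 1 or more, 3.17% against 5.31% of all rows. At an unadjusted p under 0.05, 19 genes passed, 10.1% against 21.6% of all rows. The arrays of the induced and non-induced groups did not overlap in 66 microRNA genes, 34.9% against 51.1% of all rows, with 27 higher (25% of all rows) and 39 lower (26% of all rows). In each of these counts of differing rows the share among microRNA genes was under that among all rows, a description of these arrays with no test.

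**Figure D2:**
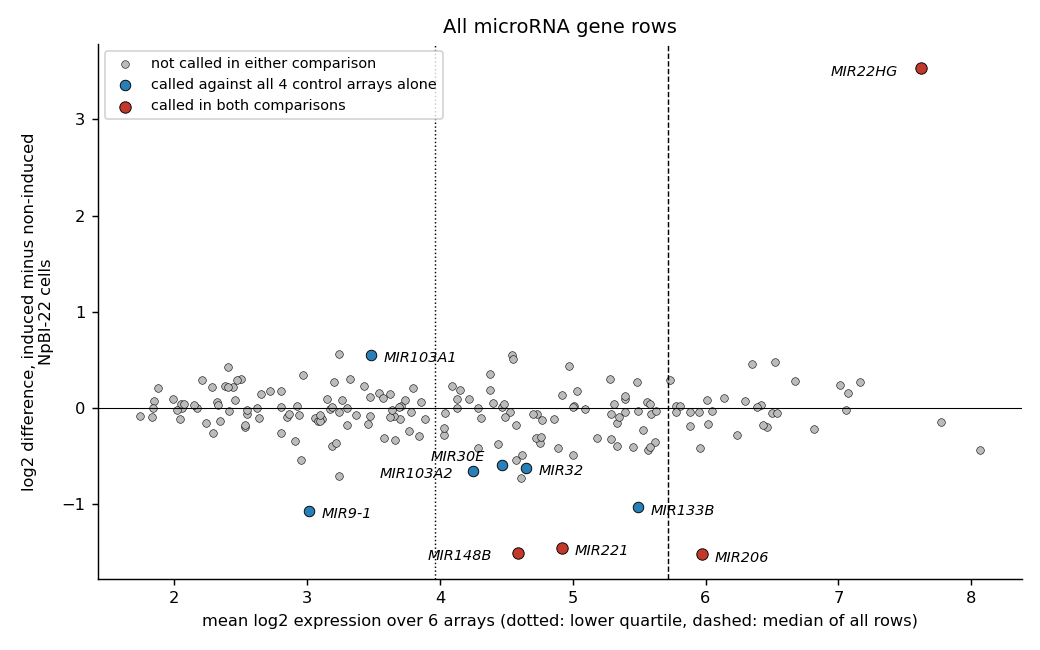
Mean log2 expression over 6 arrays (horizontal axis) against the log2 difference of induced minus non-induced NpBI-22 cells (vertical axis) for all 189 microRNA genes, with genes called in both comparisons in red and those called against all 4 control arrays alone in blue. MIR22HG stands alone at 3.53, and MIR206, MIR148B and MIR221 lie between -1.52 and -1.45, while 172 genes lie within 0.5 of no difference.

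MIR22HG, the host transcript of miR-22, was at 10.02 and 10.01 in induced NpBI-22 cells, against 6.27 and 6.72 in non-induced NpBI-22 cells. The NpBI-206AS arrays read 6.32 induced and 6.41 non-induced. Both induced NpBI-22 arrays thus stood far above all 4 others, which lay close together. The rise was 3.53 on the log2 scale (SE 0.197), 11.5-fold, with a limma adjusted p of 0.014. Probe positions were not used here, so RNA from the induced construct and RNA from the gene at chromosome 17 cannot be told apart in this row.

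MIR206, the skeletal muscle microRNA gene, was at 5.13 and 5.0 in induced NpBI-22 cells, against 6.39 and 6.79 in non-induced NpBI-22 cells. It was at 6.24 and 6.29 in induced and non-induced NpBI-206AS cells. The induced NpBI-22 arrays lay below the median of all rows and below all 4 controls. The fall was 1.52 on the log2 scale (SE 0.193, limma adjusted p = 0.026), 2.87-fold.

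MIR148B, of the family of miR-148 and miR-152 that is reported to repress DNA methyltransferase 1, was at 3.88 and 3.47 in induced NpBI-22 cells and at 5.12 and 5.22 in non-induced NpBI-22 cells. In NpBI-206AS cells it was at 4.74 induced and 5.11 non-induced. The groups did not overlap, and the induced NpBI-22 arrays were near background. MIR148B fell by 1.5 (SE 0.192, limma adjusted p = 0.026). No fold is given for it or for MIR221, since induced values near background would bound a fold only from below.

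MIR221, whose product represses the cell-cycle inhibitor CDKN1B, was at 3.67 and 3.83 in induced NpBI-22 cells, against 5.09 and 5.31 in non-induced NpBI-22 cells. In NpBI-206AS cells it was at 5.48 induced and 6.15 non-induced, above every NpBI-22 array. Here too the induced NpBI-22 arrays were near background. MIR221 fell by 1.45 (SE 0.165, limma adjusted p = 0.023).

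Leaving out an NpBI-22 array leaves 1 array in its group, which is then assumed to vary like the others. With any 1 of the 4 left out, 0 of the 33297 rows and 0 microRNA genes passed limma's test, and 3526 to 8113 rows and 7 to 31 microRNA genes had an unadjusted p under 0.05. The adjusted p of these 4 genes then lay between 0.11 and 0.4. Their differences then lay between 3.30 and 3.75 for MIR22HG, -1.73 and -1.32 for MIR206, -1.70 and -1.29 for MIR148B, and -1.56 and -1.34 for MIR221.

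**Figure D3:**
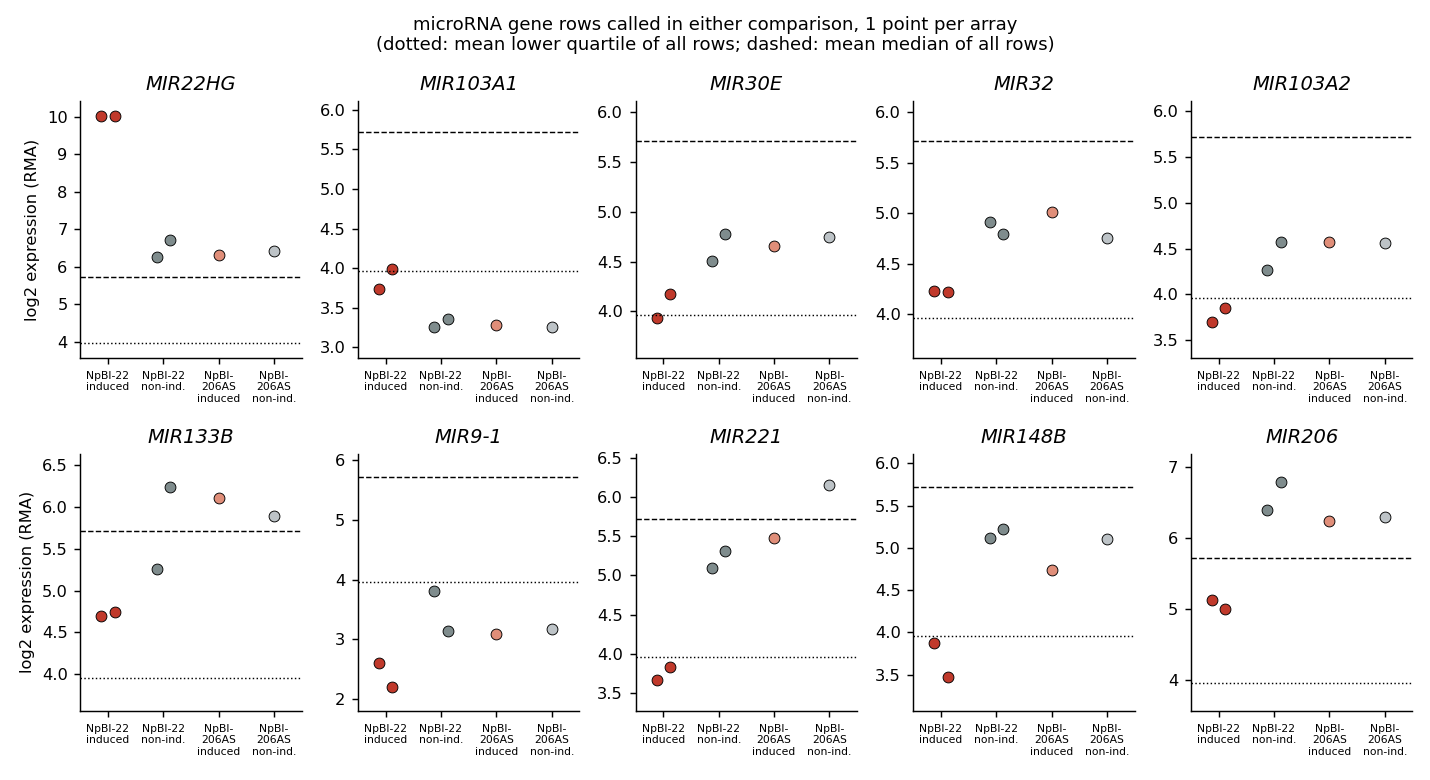
Log2 expression (vertical axes, a range for each gene) on each of 6 arrays, 1 point per array, for the 10 microRNA genes called in either comparison, with the groups side by side from induced NpBI-22 to non-induced NpBI-206AS cells. The dotted and dashed lines give the mean lower quartile and the mean median of all rows, and in MIR148B, MIR221, MIR9-1 and MIR103A2 the induced NpBI-22 points lie under the lower quartile.

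The NpBI-206AS cultures served the study as additional controls. Setting both induced NpBI-22 arrays against all 4 other arrays asks how induced cells differed from the mean of the pooled controls, not from each control. In that test 10 microRNA genes passed, 5.29% against 13.7% of all rows. They were 2 that rose, against 6.32% of all rows, and 8 that fell, against 7.43% of all rows. The 4 genes above were among them. MIR22HG rose by 3.59 (SE 0.149, limma adjusted p = 0.00016), and MIR206 fell by 1.36 (SE 0.172, limma adjusted p = 0.0036). MIR148B fell by 1.37 (SE 0.179, limma adjusted p = 0.004) and MIR221 by 1.75 (SE 0.271, limma adjusted p = 0.0071). Induced and control arrays did not overlap in 37 microRNA genes, 19.6% against 37.8% of all rows. The 2 comparisons share the non-induced NpBI-22 arrays. The pooled control arrays are not replicates of the same condition. They come from both derivatives and include induced and non-induced NpBI-206AS cells. The p-values against all 4 other arrays thus rest in part on the spread between lines and doxycycline states.

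The other 6 genes were called only with the larger control group. MIR133B, a muscle microRNA gene and the neighbour of MIR206, was at 4.70 and 4.75 in induced NpBI-22 cells, against 5.26 and 6.24 in non-induced NpBI-22 cells and 6.11 and 5.89 in induced and non-induced NpBI-206AS cells. It fell by 1.15 (SE 0.258, limma adjusted p = 0.026). Against non-induced NpBI-22 cells alone its difference was -1.03 (SE 0.326, adjusted p = 0.15), with replicates of that group 0.98 apart. MIR9-1, a gene for the neural microRNA miR-9, was at 2.61 and 2.20 in induced NpBI-22 cells, against 3.81 and 3.14 in non-induced NpBI-22 cells and 3.09 and 3.18 in induced and non-induced NpBI-206AS cells. It fell by 0.90 (SE 0.229, limma adjusted p = 0.04), but all 6 of its values were near background.

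The remaining changes were under 1 on the log2 scale. MIR103A1 was near background on 5 of 6 arrays, including all 4 controls. MIR103A1 and MIR103A2, both genes for miR-103a, rose by 0.57 (SE 0.119, limma adjusted p = 0.02) and fell by 0.72 (SE 0.134, limma adjusted p = 0.014). MIR32, which shares its seed with the miR-25 and miR-92 family, was at 4.23 and 4.22 in induced NpBI-22 cells and between 4.75 and 5.01 on the 4 control arrays. It fell by 0.64 (SE 0.12, limma adjusted p = 0.014). MIR30E, of the miR-30 family, was at 3.93 and 4.18 in induced NpBI-22 cells and between 4.51 and 4.78 on the control arrays, and fell by 0.62 (SE 0.133, limma adjusted p = 0.022). None of the 8 genes that fell had an induced NpBI-22 value as high as its lowest control value, which also held for 18.3% of all rows. The 8 genes were picked by a test on these same arrays, so this separation adds no support.

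Of these 10 genes, MIR22HG, MIR206 and MIR148B stayed under an adjusted p of 0.05 in every alternative that tested them (the filter on dim rows drops MIR148B), and the other 7 lost the call without either induced NpBI-22 array, which leaves 1 induced array. Their differences then stayed on the same side: MIR221 was at -1.67 and -1.83, MIR133B at -1.13 and -1.18, and MIR32 at -0.64 and -0.63. Among the alternatives, the replicate block is no check on the pooled controls. With it the difference comes from the NpBI-22 arrays alone and equals that of the main comparison. Without non-induced NpBI-22 replicate 2, 7 microRNA genes passed, 3.7% against 7.93% of all rows. Without non-induced NpBI-22 replicate 1, which leaves 3 control arrays that share an array-code prefix, 22 passed, 11.6% against 22.4% of all rows, with 8 higher (10.5% of all rows) and 14 lower (12% of all rows).

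Doxycycline itself was matched by setting induced NpBI-22 cells against induced NpBI-206AS cells. In that test, 1 microRNA gene passed, against 0.39% of all rows. This was MIR22HG (0.204% of all rows were called higher), with a difference of 3.69 (SE 0.242, limma adjusted p = 0.035), and when any NpBI-22 array was left out its difference was 3.69 or 3.70, with an adjusted p of 0.15 to 0.62 and 0 rows passing. The differences of the other genes kept their sign without passing: MIR206 -1.17 (SE 0.236, adjusted p = 0.11), MIR148B -1.06 (SE 0.235, adjusted p = 0.13) and MIR221 -1.73 (SE 0.203, adjusted p = 0.051). MIR206 passed without the dimmest 50% of rows (limma adjusted p = 0.042), and MIR221 with a replicate block (-1.82, limma adjusted p = 0.023). That block treats the NpBI-206AS arrays as replicate 1 arrays, which the labels do not say, and the difference of -1.82 depends on this choice. The single NpBI-206AS array in this test is assumed to vary like the NpBI-22 replicates.

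Whether the NpBI-22 line responded to doxycycline differently from the NpBI-206AS line was tested as an interaction. By limma's test 0 of the 189 microRNA genes passed, and 0% of all rows did. At an unadjusted p under 0.05 there were 9 microRNA genes, 4.76%, and 2957 rows, 8.88%. The difference of responses was 3.62 for MIR22HG (SE 0.342, unadjusted p = 6.4e-05 and adjusted p = 0.18 by limma), -1.47 for MIR206 (SE 0.334, adjusted p = 0.36), -1.13 for MIR148B (SE 0.332, adjusted p = 0.46) and -0.77 for MIR221 (SE 0.286, adjusted p = 0.53). With 0 rows passing over the whole array, this test says little about which genes differ between the lines.

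Co-located genes were read next, since hairpins of a cluster can share a primary transcript. For 164 microRNA genes a RefSeq position was found, and 73 of them fell into 28 clusters of neighbours on 1 strand within 10 kb of the next, 19 of them pairs and 9 of 3 or more genes. A call in the main comparison (3.6% of all rows) was present in 2 clusters, and in 0 clusters were all members called. In the MIR206 and MIR133B cluster on chromosome 6, with starts 4.6 kb apart, both members fell against all 4 control arrays. MIR222 lies 0.9 kb from MIR221 on chromosome X, and its row was at 3.99 and 3.45 in induced NpBI-22 cells, against 3.65 and 3.49 in non-induced NpBI-22 cells and 3.55 and 3.60 in induced and non-induced NpBI-206AS cells. Its difference was 0.15 (limma adjusted p = 0.77), with values near background on 5 of 6 arrays. MIR30C1 lies 2.9 kb from MIR30E and differed by -0.24 (limma adjusted p = 0.54), with values near background on 5 of 6 arrays.

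The clusters of 3 or more genes held 0 calls in the main comparison, in which 3.6% of all rows were called. On chromosome 14, in the imprinted region that encodes many microRNAs, a cluster of 9 measured genes from MIR487A to MIR410 had a median difference of 0.08, between -0.21 and 0.51. A second cluster of 5 there, which includes MIR494 and MIR495, had a median of 0.22, between -0.11 and 0.27. MIR25, MIR93 and MIR106B, which lie in an intron of the replication gene MCM7, differed by -0.22, 0.01 and -0.32. The epithelial cluster of MIR200B, MIR200A and MIR429 ran between -0.11 and 0.30. In the cluster of MIR23A, MIR27A and MIR24-2 on chromosome 19, the rows were apart from each other at -0.49, -0.06 and 0.56, with adjusted p of 0.14, 0.88 and 0.12 by limma. MIR24-2 was near background on all 6 arrays.

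Families and muscle genes were then counted whole. Of 23 listed muscle microRNA genes, 11 were measured, and 6 of these were near background on all arrays. In the main comparison 0 rose (1.59% of all rows) and 1, MIR206, fell (2.01% of all rows). Against all controls 0 rose (6.32% of all rows) and 2 fell (7.43% of all rows), MIR206 and MIR133B. The median difference in the main comparison was -0.26. Of the 7 muscle-lineage markers, 1 fell in the main comparison, the filament gene DES, at 8.35 and 8.05 in induced NpBI-22 cells, against 9.24 and 9.30 in non-induced NpBI-22 cells (-1.07, limma adjusted p = 0.038). The others differed by -0.70 (CDH15), -0.69 (MYOG), -0.53 (MYOD1), -0.21 (CHRNA1), 0.04 (MYF5) and 0.52 (MYF6), with adjusted p of 0.075 to 0.92 by limma. Against all controls DES and CDH15 fell (limma adjusted p = 0.017 and 0.044) and MYF6 rose (0.022). The mean level of the 7 markers was 7.80 and 7.67 in induced NpBI-22 cells, against 8.04 and 8.18 in non-induced NpBI-22 cells and 7.86 and 7.78 in induced and non-induced NpBI-206AS cells. Their part in the microRNA result was not tested. MIR1-1, which carries the MIR206 seed, was at 2.75 and 2.54 in induced and 2.58 and 2.29 in non-induced NpBI-22 cells, all near background (difference 0.22, limma adjusted p = 0.57). Its host MIR1-1HG, above the median on all arrays, differed by -0.16 (limma adjusted p = 0.67).

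Other members of the MIR148B family did not pass. MIR148A differed by 0.29 (limma adjusted p = 0.39) and was near background on all arrays. MIR152 was at 5.46 and 5.59 in induced NpBI-22 cells, against 5.46 and 5.46 in non-induced NpBI-22 cells, a difference of 0.06 (limma adjusted p = 0.86). The groups overlapped in MIR152, while in MIR148B they were more than 1 apart.

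All 11 listed let-7 genes were measured and 0 passed in either comparison, with differences between -0.54 and 0.30 in the main comparison. Of the tumour-promoting miR-17-92 cluster and its paralogs, 7 of 16 were measured and 0 passed, and of the tumour-suppressing miR-15/16 genes 4 of 4 were measured and 0 passed. Of all rows, 3.6% passed in the main comparison and 13.7% against all controls, so 0 calls among so few genes says little about these families. MIR17HG, the host transcript of miR-17-92, was at 6.82 and 6.86 in induced NpBI-22 cells, against 6.31 and 6.82 in non-induced NpBI-22 cells (difference 0.28, limma adjusted p = 0.53). MIR15A was at 5.26 and 5.35 in induced NpBI-22 cells, against 5.87 and 5.60 in non-induced NpBI-22 cells (difference -0.43, limma adjusted p = 0.22). Its groups did not overlap, and it was lower in induced cells without passing the test.

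Among microRNA genes that were not called and whose higher group mean, induced or non-induced, was at or above the median of all rows, the largest negative differences were those of MIR15A, MIR339 (-0.43, limma adjusted p = 0.19), MIR181C (-0.41, 0.2), MIR503 (-0.35, 0.34), MIR99B (-0.28, 0.43) and MIR25 (-0.22, 0.48). The largest positive were those of MIR21 (0.48, 0.3), MIR197 (0.46, 0.29), MIR99AHG (0.29, 0.39), MIR17HG (0.28, 0.53), MIRLET7I (0.27, 0.49) and MIR320A (0.24, 0.42). MIR21 was at 6.88 and 6.88 in induced NpBI-22 cells, against 6.11 and 6.69 in non-induced NpBI-22 cells. Here the gap between the non-induced replicates was larger than the difference of the group means.

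Several mature microRNAs are encoded more than once, and the arrays read each gene by a row of its own. In 18 pairs of measured genes (36 genes) both encode an identical mature sequence. In 4 pairs the main-comparison differences were 0.5 or more apart, and in 1 pair, MIR103A1 and MIR103A2, they were 1.2 apart. The hairpins of that pair are printed because they share the mature strand, in capitals, and differ elsewhere (RefSeq, GRCh38.p14, 78 bases each, with the mature strand at positions 48 to 70). MIR103A1 lies at chr5:168560896-168560973 on the minus strand, within the pantothenate kinase gene PANK3, and MIR103A2 at chr20:3917494-3917571 on the plus strand, within PANK2.
MIR103A1: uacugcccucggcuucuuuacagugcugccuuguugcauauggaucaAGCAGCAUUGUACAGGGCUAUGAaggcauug
MIR103A2: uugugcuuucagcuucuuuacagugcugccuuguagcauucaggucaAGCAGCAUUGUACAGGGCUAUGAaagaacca
At 15 of the 78 positions the hairpins differ, all outside the mature strand.

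MIR103A1 was at 3.73 and 3.99 in induced NpBI-22 cells, against 3.26 and 3.36 in non-induced NpBI-22 cells and 3.28 and 3.26 in induced and non-induced NpBI-206AS cells. MIR103A2 was at 3.70 and 3.85 in induced NpBI-22 cells, against 4.27 and 4.57 in non-induced NpBI-22 cells and 4.57 and 4.56 in induced and non-induced NpBI-206AS cells. The induced NpBI-22 arrays thus lay above all controls in one gene and below all of them in the other. Both passed only against all 4 controls, as given above, and in the main comparison they differed by 0.55 (SE 0.166, limma adjusted p = 0.13) and -0.65 (SE 0.177, limma adjusted p = 0.11). MIR107, whose product has the same seed, differed by -0.15 (limma adjusted p = 0.7). MIR26A1 and MIR26A2, the other pair with opposite directions and no overlap, differed by 0.09 and -0.71, with adjusted p of 0.8 and 0.12 by limma. In the main comparison 25% of all rows were higher and 26% lower with no overlap, so such pairs say little about copies of a gene. All 6 values of MIR26A2 were near background.

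**Figure D4:**
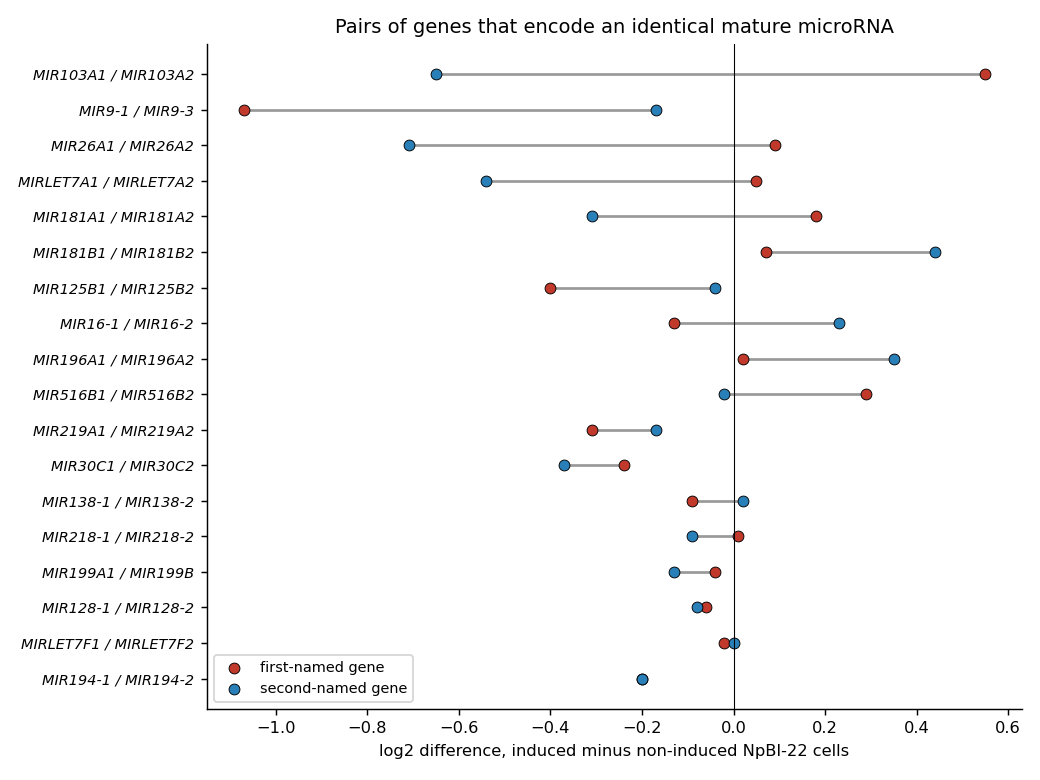
Log2 difference of induced minus non-induced NpBI-22 cells (horizontal axis) for 18 pairs of microRNA genes that encode an identical mature sequence, 1 line per pair with a point for each gene, ordered by the gap. The widest gap, 1.2, is that of MIR103A1 at 0.55 and MIR103A2 at -0.65.

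Host genes were then paired with their microRNA rows. Of 85 listed host transcripts, 58 were measured. In the main comparison 1, MIR22HG, rose (1.59% of all rows) and 0 fell (2.01% of all rows), with a median difference of -0.02. For 45 pairs of a microRNA gene and its host, over 36 hosts, the main-comparison differences correlated at Pearson -0.07 and Spearman -0.01, a description across pairs that share arrays and, in part, hosts. Their signs matched in 24 of the 45 pairs, and in 0 pairs were both called. COPZ1, the coatomer gene that holds MIR148B, was at 11.21 and 11.15 in induced NpBI-22 cells, against 10.61 and 10.98 in non-induced NpBI-22 cells. It differed by 0.38 (limma adjusted p = 0.31) and so lay on the opposite side from MIR148B at -1.5. PANK3 and PANK2 differed by 0.43 and 0.21 (limma adjusted p = 0.21 and 0.56), and NFYC, which holds MIR30E, by 0.24 (limma adjusted p = 0.41).

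Against all 4 controls 7 listed hosts passed, 12.1% of the 58 against 13.7% of all rows, of which 5 rose (6.32% of all rows) and 2 fell (7.43% of all rows). Besides MIR22HG, SLIT2, an axon guidance gene that holds MIR218-1, rose by 2.34 (limma adjusted p = 0.023), and VMP1, which overlaps MIR21, by 0.52 (limma adjusted p = 0.026). WWP2, a ubiquitin ligase gene that holds MIR140, rose by 0.60 (limma adjusted p = 0.017), and PITPNC1, a phosphatidylinositol transfer protein gene, by 0.48 (limma adjusted p = 0.038). SMC4, the condensin gene that holds MIR15B and MIR16-2, fell by 0.72 (limma adjusted p = 0.031), and PPARGC1B, a transcriptional coactivator gene that holds MIR378A, fell by 0.54 (limma adjusted p = 0.041). In the main comparison SLIT2 differed by 1.72 (limma adjusted p = 0.095) while MIR218-1 differed by 0.01 (limma adjusted p = 0.99).

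The NpBI-206AS line was read last, with 1 array per condition, and its differences are given as a description with no test of their own. Between induced and non-induced NpBI-206AS cells, 0 microRNA genes were 1 or more apart on the log2 scale, against 0.673% of all rows (0.234% higher and 0.438% lower). The median difference was 0.05, and 180 genes lay within 0.5 of no difference. Genes beyond 0.5 went both ways. MIR218-2 (0.59), MIR107 (0.55), MIR128-2 (0.55) and MIR154 (0.54) were higher in induced NpBI-206AS cells. MIR21 came nearest to the limit, at 5.78 in induced and 6.76 in non-induced NpBI-206AS cells, a difference of -0.98, while VMP1 differed by -0.18. MIRLET7A2 was at 4.88 in induced and 5.59 in non-induced NpBI-206AS cells, MIR221 at 5.48 and 6.15, and MIR17HG at 6.31 and 6.89. Induced NpBI-206AS cells read lower in each of these. Over the non-induced replicates of the NpBI-22 line the same rows were 0.82, 0.22 and 0.51 apart, so gaps of similar size to 2 of these 3 occurred without doxycycline. Those replicates differ in their array-code prefix, while the NpBI-206AS arrays share theirs. Over all microRNA genes, the gap between the non-induced NpBI-22 replicates had a median size of 0.25 and was 0.5 or more in 31 genes. Between the induced NpBI-22 replicates, which share a prefix, the median was 0.15, with 12 such genes.

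Without doxycycline, 2 microRNA genes were 1 or more apart between NpBI-206AS cells and the mean of NpBI-22 cells, 1.06% against 1.09% of all rows. Both were higher in NpBI-206AS cells (0.784% of all rows), and they are neighbours. MIR100 was at 3.84 in non-induced NpBI-206AS cells, against 2.39 and 2.77 in non-induced NpBI-22 cells, a difference of 1.25, with all 6 arrays near background. It was at 3.59 in induced NpBI-206AS cells, against 2.50 and 2.53 in induced NpBI-22 cells, so both NpBI-206AS arrays stood above all NpBI-22 arrays. MIRLET7A2, 5.7 kb away, was at 5.59 in non-induced NpBI-206AS cells, against 4.10 and 4.92 in non-induced NpBI-22 cells, a difference of 1.08. MIR125B1, 52.5 kb from MIR100 and, like it, within the host MIR100HG, was at 5.63 in non-induced NpBI-206AS cells, against 5.56 and 5.56 in non-induced NpBI-22 cells, a difference of 0.06.

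MIR221 was 0.95 higher in non-induced NpBI-206AS cells than in non-induced NpBI-22 cells, and MIR186 0.83 higher, while MIR3667HG was 0.91 lower, at 4.21 in non-induced NpBI-206AS cells, against 5.28 and 4.97 in non-induced NpBI-22 cells. Without non-induced NpBI-22 replicate 1 or 2, the number of microRNA genes 1 or more apart between the lines was 1 and 8. Across the 45 microRNA and host pairs the differences between the lines correlated at Pearson 0.58 and Spearman 0.54 (Pearson 0.53 without the outlying hosts SLIT2 and ARPP21), as a description over pairs read on the same 3 arrays. The differences between induced and non-induced NpBI-206AS cells correlated over the same pairs at Pearson 0.15 and Spearman 0.09.

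**Figure D5:**
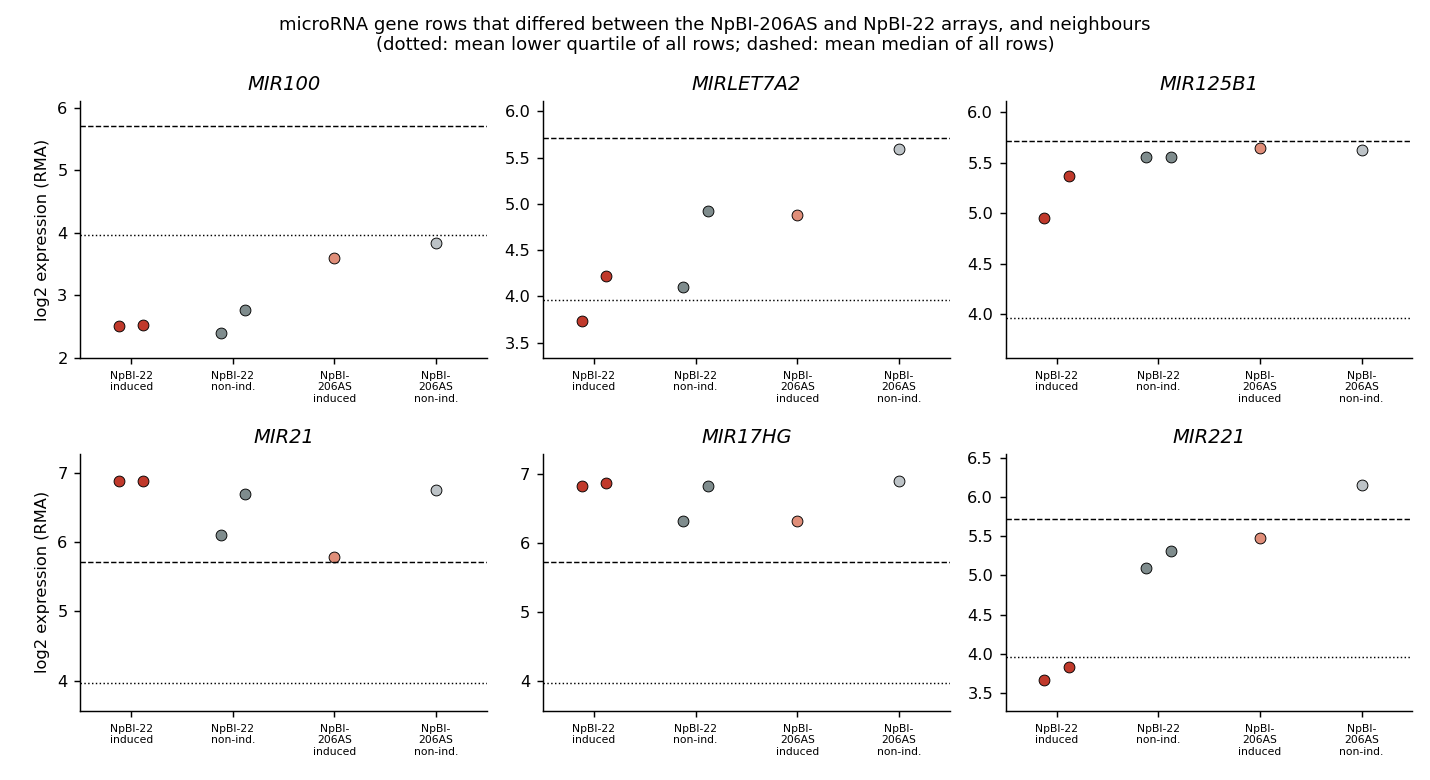
Log2 expression (vertical axes, a range for each gene) on each of 6 arrays for MIR100, MIRLET7A2, MIR125B1, MIR21, MIR17HG and MIR221, with the groups side by side from induced NpBI-22 to non-induced NpBI-206AS cells and dotted and dashed lines for the mean lower quartile and median of all rows. Both NpBI-206AS points of MIR100, at 3.59 and 3.84, lie above all NpBI-22 points, and the induced NpBI-206AS point of MIR21, at 5.78, is the lowest of its 6.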

How the data were processed

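The deposited table holds 1 column per array and 33297 rows of log2 values that the authors made by RMA; the submitters' processing notes name Partek and RMA with no version. Because RMA forces the arrays to nearly the same distribution, a shift shared by all RNA would not be seen. Per the labels' protocols, total RNA extracted with Trizol was labelled with a WT Plus kit. Neither genome build nor chip library file is given in the sources used here. Groups came from the sample titles.

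Rows were named through the platform annotation, with symbols updated by gene ID (RefSeq, GRCh38.p14). A single symbol was held by 19460 rows, several by 1754 and none by 12083. The microRNA genes, gene lists and tests were chosen with earlier results of these data known. Named genes were MIR22HG and MIR206, all called genes, the 6 largest uncalled differences each way among rows reaching the median, the 6 highest means, genes 1 or more apart in the comparisons without replicates, and members of the lists and clusters.

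The tests were two-sided moderated fits with limma 3.58.1 (lmFit and eBayes, run in R 4.3.3), with Benjamini-Hochberg adjustment over all 33297 and a threshold of 0.05. A model with 4 group means (2 residual and 3.62 prior degrees of freedom) gave the main, doxycycline-matched and interaction tests. A model with 2 groups (4 residual and 3.57 prior degrees of freedom) set induced NpBI-22 cells against the rest. The models were first tested on simulated arrays with known changes in induced NpBI-22 cells. The simulated control arrays had no differences between lines or doxycycline states, unlike the pooled controls of the data. Of 67 rows changed by 1 on the log2 scale, 52.2% were recovered in the main comparison and 92.5% against all controls. In the doxycycline-matched test 26.9% were recovered, and in the interaction 2.99%. Changes of 2 were recovered in 98.5% of 67 rows, both in the main comparison and against all controls. Of the unchanged rows, 23 were called in the main comparison and 21 against all controls. Among all calls in this simulation, these false calls made up more than the share of 0.05 that the threshold allows. The number of arrays limits the precision. Alternatives were centring, repeated quantile normalization, a filter on dim rows, averaged rows, a variance trend, a replicate block and each NpBI-22 array left out.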

Additional observations from a re-analysis of the deposited data

How the results depend on the processing

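No called result changed direction under any alternative run. In the main comparison, 1200 rows and 4 microRNA genes passed. Without the dimmest 50% of rows, which keeps 32 microRNA genes, 2611 rows and 2 microRNA genes passed. With 1 NpBI-22 array left out, the counts were 0 to 0 rows and 0 to 0 microRNA genes by limma, while an unadjusted p under 0.05 was found in 3526 to 8113 rows. Centring the arrays on their medians turned the main split of 531 higher and 669 lower rows (44.2% higher) into 718 and 574 (55.6% higher). Against all 4 controls, 4576 rows and 10 microRNA genes passed, 4755 rows and 2 microRNA genes without dim rows, and 897 to 7463 rows and 3 to 22 microRNA genes with 1 array left out. In the doxycycline-matched comparison, 130 rows and 1 microRNA gene passed, against 747 rows and 2 microRNA genes (MIR22HG and MIR206) without dim rows, 75 rows with a gene's rows averaged, and 0 to 0 rows and 0 to 0 microRNA genes with 1 array left out. In the interaction 0 rows passed in every alternative, while 2957 had an unadjusted p under 0.05 in limma's test as reported. Centring left 1 microRNA gene 1 or more apart between the NpBI-206AS arrays, against 0. Between the lines, 0 were left without dim rows and 1 to 8 with 1 array left out, against 2.

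The labels only number the replicates. Same-numbered NpBI-22 arrays deviated together with a correlation of 0.196, and with 2 pairs this does not show that the numbers pair the cultures. With the replicate number as a block, 2955 rows and 5 microRNA genes passed in the main comparison, where MIR9-1 (limma adjusted p = 0.022) joined the 4. In the doxycycline-matched comparison 930 rows and 3 microRNA genes (MIR22HG, MIR221 and MIR186) passed. There the block treats the NpBI-206AS arrays as replicate 1 arrays, which the labels do not say, and the counts depend on this choice.

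Levels near background, 2 arrays per NpBI-22 group and 1 per NpBI-206AS group limit all of these values.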
